A study of Homo sapiens with 9 samples.

Results

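CDK12, CDK13, CCNK, CDK9, CCNT1 and CCNT2 encode the cyclin-dependent kinases that phosphorylate elongating RNA polymerase II, with their cyclins. They were read in total RNA of Flip-In-293 cells, a human embryonic kidney line, on exon arrays. The genes were taken as the probe sets that the platform annotation pairs with exactly 1 gene symbol, current or older, CRKRS standing for CDK12 and CDC2L5 for CDK13. They are 6 of 19426 genes with such a probe set, and they hold 143 probe sets of 354600: 25 for CDK12, 39 for CDK13, 26 for CCNK, 14 for CDK9, 13 for CCNT1 and 26 for CCNT2. All cells had been infected with lentivirus and cultured for 10 days before RNA was isolated. The control arrays carried the non-silencing hairpin (NS), and the others a hairpin against CPSF3, the endonuclease of mRNA 3' end cleavage, or against RBFOX2, a splicing regulator. Each group had 3 arrays. The titles call the replicates biological and the series description calls them technical, so each error covers only how far these arrays differ, and that may be technical. The 6 genes were chosen with their values on these arrays known, so their differences are a description and no p-value is given for them.

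The kinases act in 2 pairs of complexes. CDK9 with cyclin T1 or T2 (CCNT1, CCNT2) forms P-TEFb, which releases paused polymerase into elongation by phosphorylating the polymerase C-terminal domain (CTD), NELF and SPT5. CDK12 and CDK13, close paralogues, each bind cyclin K (CCNK) and phosphorylate the CTD further along genes; loss of CDK12 is known to favour early polyadenylation and to lower long DNA repair transcripts. The study's title names the use of internal exons under 3' end formation factors, which is the question the knockdown arrays address.

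The array values were log2 probe set signals, and each probe set has its own brightness, so no level is set against that of another gene. Probe sets whose 9-array mean reached 6.97, the median over the whole array, were kept. This kept 135 of the 143: all 25 for CDK12, 36 of 39 for CDK13, 22 of 26 for CCNK, all 14 for CDK9, all 13 for CCNT1 and 25 of 26 for CCNT2. The gene level is the median of the kept probe sets on an array. All differences are in log2 units, with the standard error (SE) of a limma model over the 3 groups. Both hairpin groups are compared with the same 3 control arrays, so those comparisons are not independent.

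Array medians differed by at most 0.0332. The level of CPSF3 itself was 9.47 ± 0.29 (SD, n = 3) without and 9.38 ± 0.19 (SD, n = 3) with its own hairpin, a difference of -0.09 ± 0.16 (SE; limma, adjusted p = 0.752), so the transcript does not bear out that label and those arrays are called the arrays labelled CPSF3 knockdown. RBFOX2 differed by -0.58 ± 0.12 (SE; limma, adjusted p = 0.0617) under its own hairpin. Of 7 HEK293 markers, VIM, KRT8 and NEFL fell on the arrays labelled CPSF3 knockdown, by 1.05, 0.57 and 0.87 (limma, adjusted p = 0.000546, 0.0138 and 0.00122), and none was called under the RBFOX2 hairpin. VIM, KRT8, NEFL and KRT18 lay at percentiles 96.4, 95.4, 90.4 and 88.8 of gene levels, and PAX2, PAX8 and NEFM at 39.2, 33.2 and 12.1. Measured fibroblast markers ran from percentile 0.86 to 62.5 and blood markers from 22.8 to 60.9. Endothelial markers ran from 0.67 to 70.2 and keratinocyte markers from 7.59 to 42.5, so some markers of other cell types ranked above PAX2 and PAX8. None of the measured fibroblast, blood, endothelial or keratinocyte markers was called in either comparison. Control replicate 3 lay nearest to the mean of the hairpin arrays, at a root mean square distance over genes of 0.21, against 0.32 and 0.37 for control replicates 1 and 2. Its part, and that of the marker falls, in the results below was not tested beyond the values given without that array.

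CDK12 and CDK13 had the largest differences of the 6 genes: on the arrays labelled CPSF3 knockdown both were about 1 log2 unit higher, above every control array. CDK12, on chromosome 17 (plus strand), read 9.26, 9.28 and 9.64 on the control arrays. Its levels were 10.48, 10.26 and 10.25 on the arrays labelled CPSF3 knockdown and 9.71, 9.54 and 9.98 on the RBFOX2 arrays. The first set lies wholly above the control arrays, and the RBFOX2 arrays overlap with them through control replicate 3. The means were 9.39 ± 0.21, 10.33 ± 0.13 and 9.74 ± 0.22 (SD, n = 3 each). CDK12 was thus 1.92-fold higher on the arrays labelled CPSF3 knockdown (0.94 ± 0.14 SE, 95% interval 0.63 to 1.25) and 1.28-fold higher on the RBFOX2 arrays (0.35 ± 0.14 SE, 0.05 to 0.66). Between the hairpin groups the difference was 0.59 ± 0.14 (SE), with no overlap.

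CDK13, on chromosome 7 (plus strand), read 8.65, 8.21 and 9.25 on the control arrays. It read 9.96, 9.71 and 9.64 on the arrays labelled CPSF3 knockdown and 9.41, 9.21 and 9.60 on the RBFOX2 arrays. Only 1 control array, replicate 3, reaches into the RBFOX2 range, and none reaches the arrays labelled CPSF3 knockdown. The means were 8.70 ± 0.52, 9.77 ± 0.17 and 9.41 ± 0.20 (SD, n = 3 each). The differences from control were 1.07 ± 0.21 (SE; 2.10-fold, 95% interval 0.63 to 1.51) and 0.70 ± 0.21 (SE; 1.63-fold, 0.26 to 1.15). The control SD of CDK13 was the largest of the 6 genes, with replicate 3 highest and replicates 1 and 2 also unlike. Without replicate 3 the differences were 1.34 ± 0.16 and 0.98 ± 0.16 (SE), against 1.06 ± 0.14 and 0.48 ± 0.14 for CDK12.

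Since CDK12 and CDK13 were higher together under the CPSF3 label, the 250 bases before a transcription start of each are shown, 5' to 3', from RefSeq for GRCh38.p14. Where several starts were listed, the first by position was taken, and which start these cells use was not tested. The windows lie at chr17:39461236-39461485 and chr7:39950006-39950255, both on the plus strand. Capitals mark a GC box.
CDK12: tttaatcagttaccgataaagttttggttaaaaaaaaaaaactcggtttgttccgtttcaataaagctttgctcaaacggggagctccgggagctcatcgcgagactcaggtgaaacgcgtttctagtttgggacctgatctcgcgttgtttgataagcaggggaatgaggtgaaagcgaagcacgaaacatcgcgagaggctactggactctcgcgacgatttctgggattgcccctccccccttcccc
CDK13: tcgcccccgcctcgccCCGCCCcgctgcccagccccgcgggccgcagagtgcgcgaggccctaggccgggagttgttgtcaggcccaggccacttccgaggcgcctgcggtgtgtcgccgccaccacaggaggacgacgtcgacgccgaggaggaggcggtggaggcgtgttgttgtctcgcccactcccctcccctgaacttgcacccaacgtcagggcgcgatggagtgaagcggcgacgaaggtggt
The windows differ in base composition, with 48.8% G and C for CDK12 and 72.0% for CDK13, against a median of 58.0% over 35116 RefSeq promoter windows of that length. Searched on both strands, the GC box (GGGCGG, in capitals as CCGCCC) has 1 match before CDK13 and 0 before CDK12, and 42.6% of all windows hold it. TATAAA (10.7% of windows), CCAAT (32.0%), the E-box CACGTG (6.34%) and the ETS core CCGGAAG (8.52%) have 0 matches in either. A match is a run of letters and not a measured site.

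CCNK, on chromosome 14 (plus strand), encodes the cyclin that both kinases need, and its level did not move with them. It read 10.40, 10.44 and 10.17 on control arrays, 10.28, 10.23 and 10.71 on arrays labelled CPSF3 knockdown, and 9.69, 10.57 and 10.58 on RBFOX2 arrays. All 3 groups overlap, with 1 low RBFOX2 array. The differences from control were 0.07 ± 0.21 (SE, 95% interval -0.38 to 0.51) and -0.06 ± 0.21 (SE, -0.51 to 0.39).

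Of the P-TEFb genes, CDK9, the kinase, on chromosome 9 (plus strand), had overlapping levels in all groups. The control arrays read 10.14, 10.20 and 10.14, the arrays labelled CPSF3 knockdown 10.02, 10.26 and 9.86, and the RBFOX2 arrays 10.19, 9.92 and 9.88. Its differences from control were -0.12 ± 0.13 (SE, 95% interval -0.39 to 0.16) and -0.17 ± 0.13 (SE, -0.44 to 0.11).

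Both T cyclins were somewhat higher on the arrays labelled CPSF3 knockdown, by less than CDK12 and CDK13. CCNT1, on chromosome 12 (minus strand), read 10.59, 10.53 and 10.63 on control arrays, 10.92, 10.85 and 10.87 on arrays labelled CPSF3 knockdown, and 9.89, 10.43 and 10.59 on RBFOX2 arrays. The arrays labelled CPSF3 knockdown lie above all others, 0.30 ± 0.15 (SE; 1.23-fold, 95% interval -0.03 to 0.62) above control, while the RBFOX2 arrays were spread widely around -0.28 ± 0.15 (SE). CCNT2, on chromosome 2 (plus strand), read 9.14, 9.05 and 8.99 on control arrays, 9.49, 9.23 and 9.26 on arrays labelled CPSF3 knockdown, and 8.81, 8.99 and 9.21 on RBFOX2 arrays. It too lay above all control arrays under the CPSF3 label, by 0.27 ± 0.13 (SE; 1.20-fold, 95% interval -0.01 to 0.54). The RBFOX2 arrays differed from control by -0.06 ± 0.13 (SE).

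**Figure D1:**
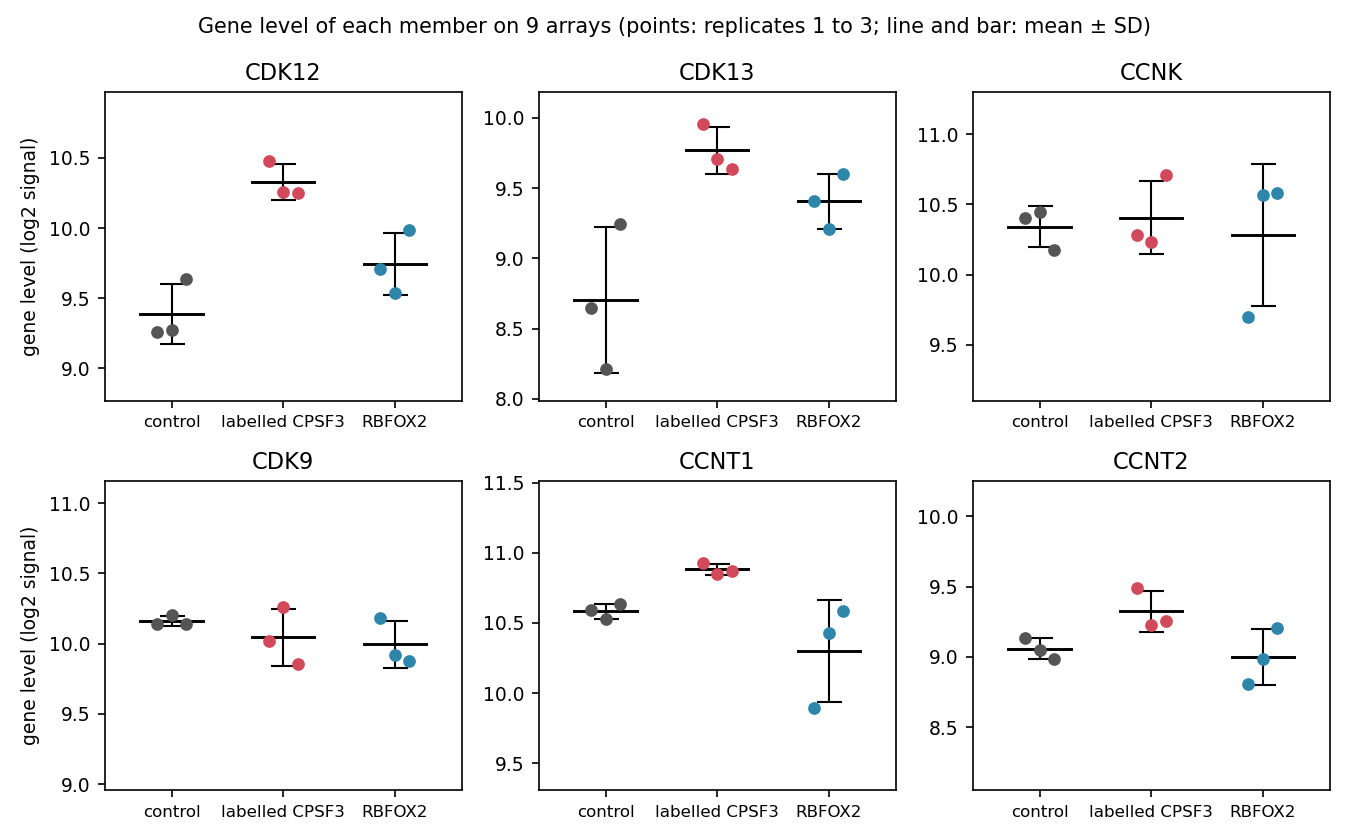
Gene level (log2 signal) of the 6 genes on each of the 9 arrays, by group; points are single arrays and bars the mean with its SD (n = 3). CDK12 and CDK13 lie highest on the arrays labelled CPSF3 knockdown (means 10.33 and 9.77, against 9.39 and 8.70 on control arrays), and CCNK and CDK9 overlap in all groups.

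In the limma fit over all 16748 genes, 2 of the 6 genes (CDK12 and CDK13) passed an adjusted p of 0.05 between the arrays labelled CPSF3 knockdown and control, beside 14.4% of all genes; 10% of genes were called higher and 4.38% lower. In 4 of 6 the groups did not overlap and were higher, and in none were they lower, against 17.9% and 13.2% of genes. Between RBFOX2 and control arrays none of the 6 passed the threshold, beside 0.173% of all genes (0.0299% higher, 0.143% lower). None was free of overlap, as 7.07% of genes were above control and 7.05% below; 2 of 6 had an unadjusted p under 0.05, as did 13.6% of genes. Between the hairpin groups none passed, beside 0.4% of genes; 4 lay higher without overlap under the CPSF3 label, beside 10.9% of genes, and 3 had an unadjusted p under 0.05, beside 13.3%. Nothing is read from these counts, since the genes were chosen on these contrasts. The median difference over the 6 genes was 0.28, -0.06 and 0.34 in the 3 comparisons, and 0.01, 0.03 and 0.00 over all genes. In that first comparison CDK12 and CDK13 passed the threshold in each of 18 other settings. Those settings reuse the same 9 arrays or part of them, so nothing is read from that either. From the 12 CDK13 probe sets up to identifier 2998554 alone the difference was -0.38, and the median of their single differences was -0.04. CDK13 passed for RBFOX2 against control in 2 of 18, without control replicate 3 and with array weights. Without that replicate 9.23% of all genes were called there, and 20.5% under the CPSF3 label.

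Gene by gene, the single probe sets show how even these differences were. Of 135 kept probe sets, 62 had arrays labelled CPSF3 knockdown wholly above control and 5 wholly below, where 16.9% and 10.8% of all probe sets did. Against control, the RBFOX2 arrays lay wholly above in 10 and wholly below in 7, where 6.36% and 6.18% of all did. CDK12 differed in 1 direction: all 25 probe sets had a higher mean on the arrays labelled CPSF3 knockdown, by 0.22 to 1.33 with a median of 0.92, and 22 did not overlap with control. The SD of these differences was 0.24, and 60.8% of 15035 genes had a smaller one. The largest difference was at probe set 3720231, with 8.07, 7.87 and 8.68 on control arrays and 9.73, 9.23 and 9.65 on arrays labelled CPSF3 knockdown. The smallest was at 3720257, with 7.72, 7.64 and 7.95 against 7.88, 7.83 and 8.24. That probe set thus stayed near its control values while the rest of CDK12 was higher, a relative difference (probe set minus gene level) of -0.72 ± 0.16 (SE). On the RBFOX2 arrays all 25 means were higher too, by 0.10 to 0.67, with 1 probe set free of overlap.

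**Figure D2:**
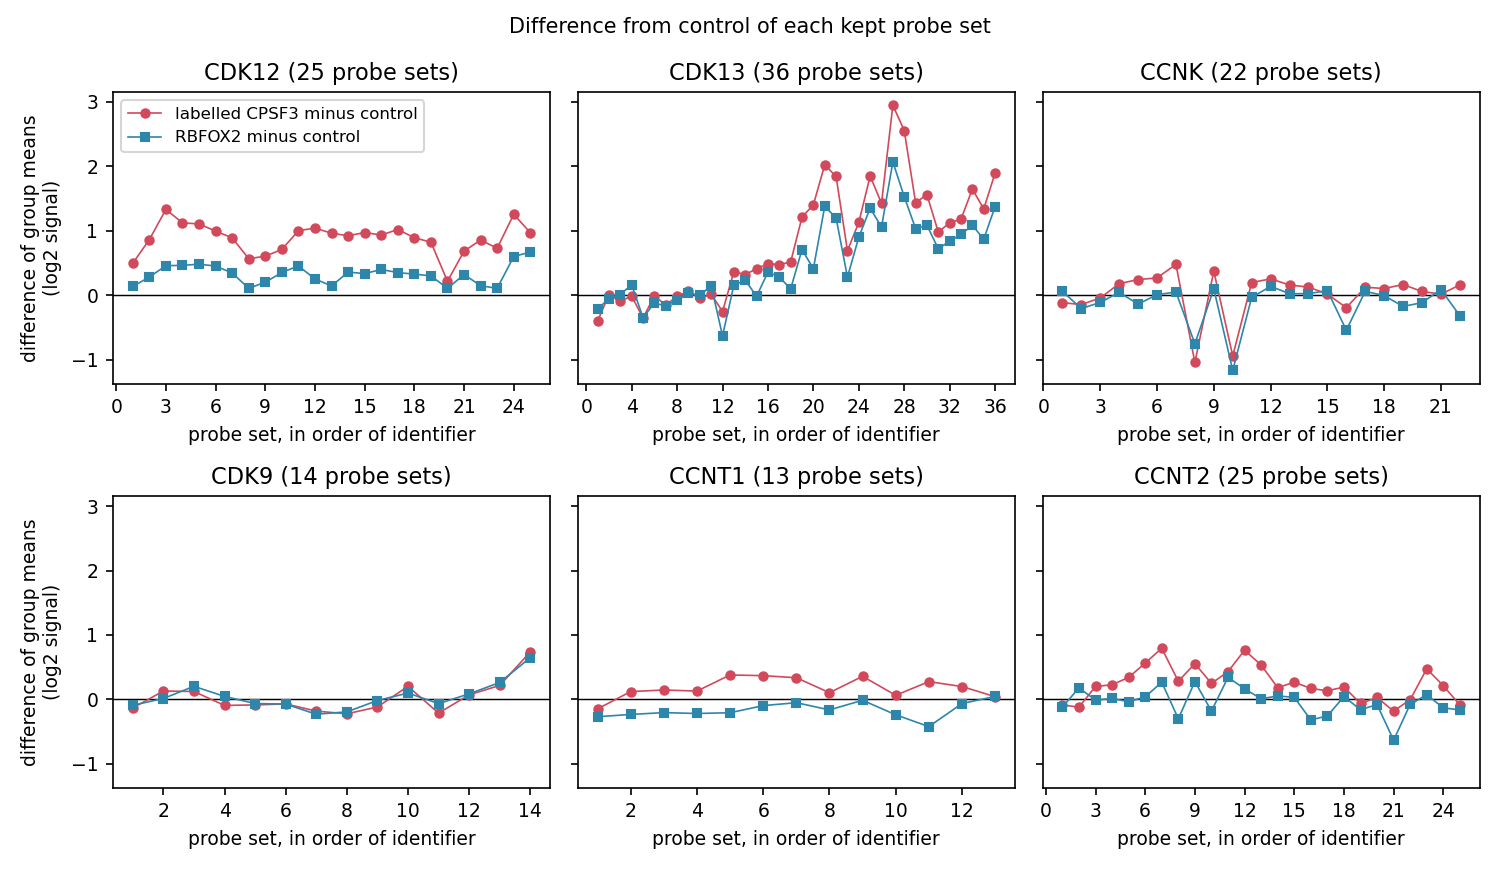
Difference of mean signal from control (log2) for each kept probe set of the 6 genes, in order of probe set identifier, for the arrays labelled CPSF3 knockdown and for RBFOX2 arrays. CDK12 lies above 0 throughout, and CDK13 lies near 0 or below up to identifier 2998554 and above it in the arrays labelled CPSF3 knockdown from 2998564.

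CDK13 was uneven. Its differences ran from -0.41 to 2.95 on the arrays labelled CPSF3 knockdown and from -0.63 to 2.07 on the RBFOX2 arrays. The SD of these differences over its probe sets was 0.88 and 0.63; 99.9% of 15035 genes had a smaller SD in each comparison. In order of identifier the probe sets fall into a stretch with no gain and one with a large gain, a division made after the values were seen. Identifiers of neighbouring genes follow the chromosome: those next to CDK13 belong to RALA and SUGCT, its RefSeq neighbours on that strand. Where each probe set lies inside the gene is not known from the sources used here.

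The 12 CDK13 probe sets from 2998543 to 2998554, nearer to RALA in identifier order only, were close to control. The median of their 12 differences was -0.04 under the CPSF3 label and -0.06 under the RBFOX2 hairpin, and single differences ran from -0.41 to 0.06 and from -0.63 to 0.16. Probe set 2998550, an example picked after its values were seen, read 10.97, 10.99 and 11.13 on control arrays and 10.98, 11.04 and 11.02 under the CPSF3 label, with overlap. None of the 12 lay wholly above control in either comparison, and 2 and 4 lay wholly below. Probe set 2998543 was the lowest under the CPSF3 label, at 9.81, 9.87 and 9.81 against 10.32, 10.10 and 10.28 in the control group. The median signal of the stretch was 10.57, 10.39 and 10.53 in the control group, 10.16, 10.18 and 10.00 under the CPSF3 label and 9.99, 10.46 and 10.19 on RBFOX2 arrays. Its mean difference of -0.38 under the CPSF3 label is larger than the median of single differences because probe sets 2998543 and 2998547 lie in the middle of the 12 by brightness and set that median.

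The 24 kept CDK13 probe sets from 2998564 to 2998626 had median signals of 8.35, 7.90 and 8.88 on control arrays. The arrays labelled CPSF3 knockdown read 9.96, 9.56 and 9.57, and the RBFOX2 arrays 9.32, 8.94 and 9.57. Every hairpin array was above every control array here; the means were 8.38 ± 0.49, 9.70 ± 0.23 and 9.28 ± 0.32 (SD, n = 3 each). This is 2.50-fold (1.32) and 1.87-fold (0.90) above control, and 1.57 and 1.15 without control replicate 3. The medians of the 24 single differences were 1.27 and 0.88. All 24 had a higher mean under the CPSF3 label, 21 without overlap, and 23 under the RBFOX2 hairpin, 7 without overlap.

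Within that stretch the gain was smaller at the lowest identifiers, a further division made after the values were seen. The 6 probe sets from 2998564 to 2998572 differed by 0.32 to 0.51 on the arrays labelled CPSF3 knockdown. The 18 from 2998576 on differed by 0.69 to 2.95, each of the 18 without overlap, where 16.9% of all probe sets lay wholly above control. Nothing is read from that count, since the division was set by these differences. The probe set just before 2998615 by identifier had the largest difference and was known from earlier results: 5.08, 5.33 and 6.45 on control arrays, 8.77, 8.16 and 8.78 on arrays labelled CPSF3 knockdown, and 6.98, 7.42 and 8.66 on RBFOX2 arrays. All hairpin arrays lie above the control arrays, and its relative differences were 1.88 ± 0.35 and 1.36 ± 0.35 (SE). Probe set 2998615 itself read 6.48, 5.76 and 7.88 on control arrays against 9.56, 8.82 and 9.41 on arrays labelled CPSF3 knockdown. The same order held at 2998588, picked after its values were seen, with 6.87, 6.98 and 8.11 against 9.10, 9.36 and 9.57. In all 3 of these probe sets control replicate 3 was the highest control array, by over 1 log2 unit.

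The stretches differed in brightness: the control mean of the median signal was 10.49 in the lower stretch and 8.38 in the upper. Control means of single probe sets overlapped, from 7.64 to 11.92 in the lower stretch and from 5.62 to 11.06 in the upper. Whether brightness plays a part in the division was not tested. The probe sets named next were picked after their values were seen. The dim probe set 2998544 of the lower stretch read 7.26, 7.73 and 7.93 on control arrays and 7.63, 7.82 and 7.50 on arrays labelled CPSF3 knockdown, a difference of 0.01. The bright probe set 2998564 of the upper stretch read 11.20, 10.84 and 11.14 against 11.55, 11.43 and 11.29, a difference of 0.36. The gene level of CDK13 is thus a median over unlike probe sets, and the relative differences of the lower stretch, such as -1.47 ± 0.26 (SE) at 2998543, contain the gene-level difference of 1.07 that is subtracted.

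**Figure D3:**
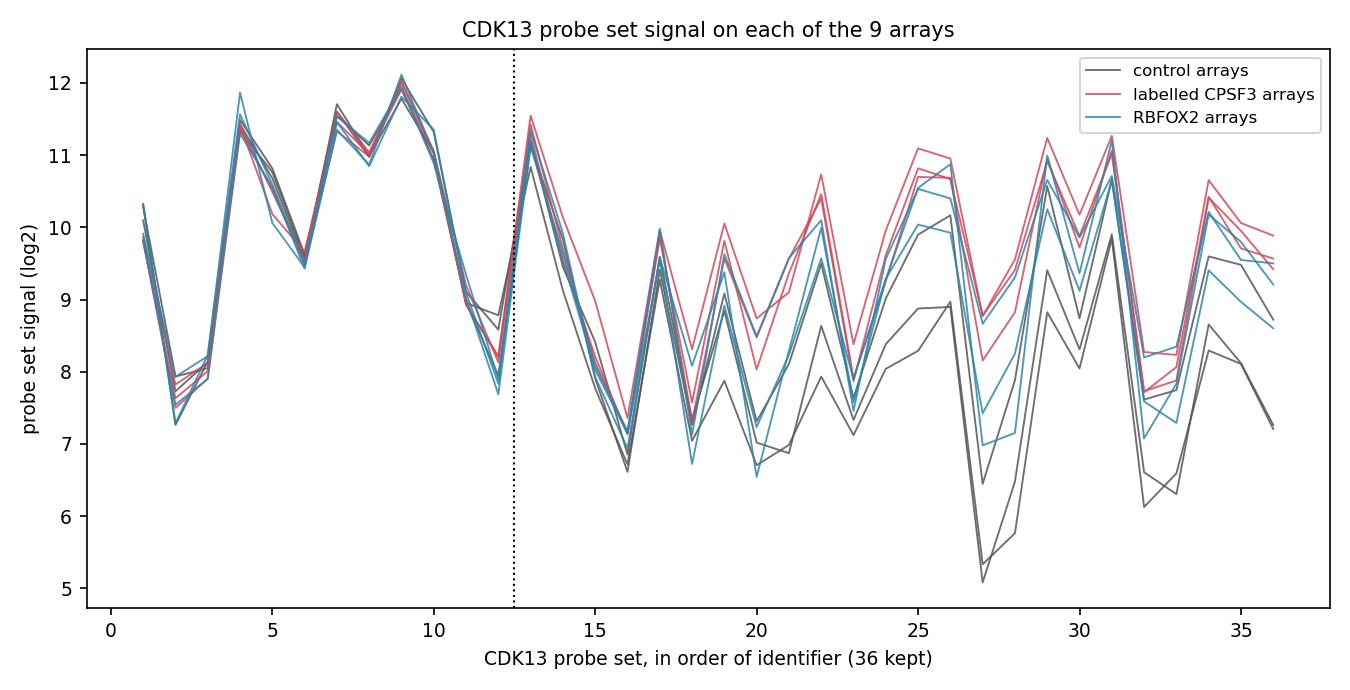
Signal (log2) of the 36 kept CDK13 probe sets on each of the 9 arrays, in order of identifier; lines are single arrays coloured by group. The groups overlap or the control arrays lie slightly higher up to 2998554, and from 2998576 the arrays labelled CPSF3 knockdown lie above control, by up to 2.95.

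CCNK had a flat level but 2 probe sets that were lower under both hairpins. Probe set 3551318 read 9.61, 9.58 and 9.08 on control arrays, 8.46, 8.16 and 8.52 on arrays labelled CPSF3 knockdown, and 8.42, 9.02 and 8.57 on RBFOX2 arrays. At 3551320 the control arrays read 8.71, 8.99 and 7.85, and the hairpin arrays 7.42, 7.71 and 7.59 (CPSF3 label) and 6.97, 7.61 and 7.47 (RBFOX2). Both hairpin groups lie below every control array in both probe sets, with mean differences of -1.04 and -0.76, and of -0.94 and -1.17. Probe set 3551319, between them by identifier, did not follow: its differences were 0.37 and 0.10. Over all 22 probe sets the differences ran from -1.04 to 0.48 under the CPSF3 label, and 16 had a higher mean. These 2 of 22 were the ones wholly below control in each comparison, where 10.8% (CPSF3 label) and 6.18% (RBFOX2) of all probe sets were. Wholly above were 5 under the CPSF3 label and 0 under the RBFOX2 hairpin, where 16.9% and 6.36% of all were.

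One CDK9 probe set, 3190055, the last by identifier, was higher under both hairpins while the gene level was not. It read 7.86, 8.32 and 8.31 on control arrays, 8.95, 8.96 and 8.79 on arrays labelled CPSF3 knockdown, and 8.89, 8.94 and 8.60 on RBFOX2 arrays. At 3190055 no hairpin array overlaps with control, and the relative differences were 0.85 ± 0.15 and 0.81 ± 0.15 (SE). In each comparison 2 of the 14 CDK9 probe sets, this one among them, lay wholly above control and 0 wholly below. Of all probe sets, 16.9% under the CPSF3 label and 6.36% under the RBFOX2 hairpin lay wholly above. The other end of the CDK9 range under the CPSF3 label was -0.22, at 3190047.

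CCNT1 varied little between probe sets, and CCNT2 more: the SD of their differences under the CPSF3 label was 0.16 and 0.27, and 18.8% and 69.0% of 15035 genes had a smaller one. In CCNT1, 12 of 13 probe sets had a higher mean on the arrays labelled CPSF3 knockdown and 12 of 13 a lower mean on the RBFOX2 arrays. Probe set 3453220 was lower under both: 11.17, 11.01 and 11.18 on control arrays, 10.96, 10.95 and 11.01 under the CPSF3 label, and 10.79, 10.89 and 10.88 on RBFOX2 arrays. In each comparison 3453220 was the 1 of 13 wholly below control, where 10.8% (CPSF3 label) and 6.18% (RBFOX2) of all probe sets were. Under the CPSF3 label 5 of the 13 lay wholly above control, where 16.9% of all did. CCNT2 differences ran from -0.18 to 0.79 under the CPSF3 label, with 19 of 25 higher and 7 wholly above control. The highest was 2507228, where the control arrays spread from 7.79 to 8.75 and the arrays labelled CPSF3 knockdown read 9.49, 9.13 and 8.85.

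In the limma test of relative signal over 257548 probe sets, none of the 135 passed an adjusted p of 0.05 in either comparison with control, and 0% of all probe sets did. At an unadjusted p under 0.05 there were 35 under the CPSF3 label and 26 under the RBFOX2 hairpin, beside 12.7% and 7.88% of all probe sets. CDK13 alone, with its unlike stretches, held 25 of the 35 and 19 of the 26. Each of the other genes had 1 to 3 under the CPSF3 label and 0 to 3 under the RBFOX2 hairpin, of 13 to 25 kept. Without control replicate 3, 18 CDK13 probe sets passed under the CPSF3 label, 3 of them higher, where 1.49% of all probe sets did. Under the same setting 2 CCNK probe sets and 1 of CDK9 passed; in the RBFOX2 comparison 2 of CDK13 and 1 of CCNK did, beside 0.32% of all.

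Around these kinases, 78 of the 79 genes of 6 lists of their regulators, partners and substrates were measured. The lists came from general knowledge, with earlier results of these arrays known. Between the arrays labelled CPSF3 knockdown and control, 17 of 78 rose and 1 fell (limma, adjusted p under 0.05), that is 21.8% rising beside 10% of all genes, and the median difference was 0.18 beside 0.01. The count of 18 depended on single arrays: it was 9, 8 and 23 without control replicates 1, 2 and 3, and 6 without CPSF3 replicate 1. Of the 18 called genes, CTR9, RPRD2, RPAP2, POLR2B, TP53BP1 and BRCA1 passed in each of 18 other settings, and the other 12 lost the call in 1 to 12 of them. Between RBFOX2 and control arrays limma called none of the 78, beside 0.173% of all genes. There 10 had an unadjusted p under 0.05, beside 13.6% of all genes, and the median was 0.05 beside 0.03. Between the hairpin groups none was called, beside 0.4% of all genes. There 22 had an unadjusted p under 0.05, all higher under the CPSF3 label. Over all genes 13.3% had such a p, 1328 of 2226 higher under that label.

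Of 14 P-TEFb regulators and super elongation complex genes, 4 rose and none fell under the CPSF3 label. MLLT3, a chromatin reader of the super elongation complex, rose by 0.87 ± 0.19 (SE; limma, adjusted p = 0.0101). MEPCE, which caps the 7SK RNA that holds P-TEFb inactive, rose by 0.64 ± 0.18 (SE; adjusted p = 0.0339 in limma). LARP7, the 7SK-binding protein, and MLLT1 rose by 0.53 and 0.40; both are named after their values were seen. The calls of MEPCE, LARP7 and MLLT1 were lost in 6, 6 and 8 of 18 settings (limma, adjusted p up to 0.155, 0.156 and 0.154), among them with control replicate 1 or 2 or CPSF3 replicate 1 left out, and that of MLLT3 in 1, without CPSF3 replicate 1 (limma, adjusted p = 0.054). HEXIM1, the P-TEFb inhibitor of the same particle, differed by 0.09 ± 0.14 (SE, limma, adjusted p = 0.733) and is likewise named with its value known. Over the settings it ranged from -0.09 to 0.32. It passed in 1 of 18, with the gene level as the mean (0.32, limma, adjusted p = 0.049). In the RBFOX2 comparison the smallest p was that of EAF1, at -0.41 ± 0.13 (SE; limma, adjusted p = 0.177), which passed with array weights alone.

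Among 19 pausing and elongation factors, 4 rose and none fell. CTR9, a scaffold of the PAF1 complex, read 7.89, 7.81 and 8.21 on control arrays and 9.01, 8.81 and 8.60 on arrays labelled CPSF3 knockdown, with no overlap. It rose by 0.84 ± 0.14 (SE; limma, adjusted p = 0.00332), and the PAF1 subunit itself by 0.52 ± 0.12 (SE; adjusted p = 0.0122). SETD2, which methylates histone H3 during elongation, and SUPT16H, a subunit of the FACT chaperone, also rose, by 0.50 and 0.43; they are named after their values were seen. The calls of PAF1, SETD2 and SUPT16H were lost in 3, 6 and 5 of 18 settings (limma, adjusted p up to 0.0913, 0.121 and 0.108), among them without control replicate 2 and without CPSF3 replicate 1, and for SETD2 and SUPT16H also without control replicate 1, CPSF3 replicate 2 or CPSF3 replicate 3. Under the RBFOX2 hairpin CTR9 had the smallest p of the list, at 0.50 ± 0.14 (SE; limma, adjusted p = 0.157); it passed without control replicate 3 (0.62; limma, adjusted p = 0.0136) and with array weights.

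Of 12 other transcription kinases and cyclins, 1 rose and 1 fell, and the median difference was 0.19. CDK8, the kinase of the Mediator complex, rose by 0.39 ± 0.11 (SE; limma, adjusted p = 0.0255); the call was lost in 5 of 18 settings (limma, adjusted p up to 0.0907), with no filter and with control replicate 1 or 2 or CPSF3 replicate 1 or 3 left out. CCNL1, cyclin L1 of the splicing-linked CDK11, fell by 0.93 (± 0.28 SE; limma, adjusted p = 0.0426), but its control arrays read 10.68, 10.35 and 9.13 and the arrays labelled CPSF3 knockdown 9.34, 9.02 and 9.00. Control replicate 3 overlaps with the lower group, and the call was lost in 12 of 18 other settings, among them those that left out any 1 array other than control replicate 3 (limma, adjusted p up to 0.179). On RBFOX2 arrays CCNL1 differed by -1.08 ± 0.28 (SE; limma, adjusted p = 0.136), and by -1.54 without control replicate 3 (limma, adjusted p = 0.000131).

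Of 11 CTD phosphatases and CTD-binding proteins, 3 rose and none fell. RPRD2, a CTD-binding protein, read 8.94, 8.77 and 9.27 on control arrays and 10.17, 9.81 and 9.75 on arrays labelled CPSF3 knockdown, a rise of 0.92 ± 0.16 (SE; limma, adjusted p = 0.00336). RPAP2, a CTD phosphatase, rose by 0.88 ± 0.17 (SE; limma, adjusted p = 0.00635). SCAF8, a CTD-binding regulator of polyadenylation site choice, rose by 0.58 and is named after its value was seen; without CPSF3 replicate 1 its adjusted p in limma was 0.0502. In the RBFOX2 comparison the smallest p was that of SCAF4, at -0.30 ± 0.12 (SE; limma, adjusted p = 0.282).

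Of 12 RNA polymerase II subunits, POLR2B, the second largest, was the one called, with a rise of 0.65 ± 0.14 (SE; limma, adjusted p = 0.00909). POLR2A, which carries the CTD, had the smallest p of the subunits under the RBFOX2 hairpin, at -0.28 ± 0.15 (SE; limma, adjusted p = 0.43).

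The DNA repair genes that are often studied with CDK12 had the highest share called among the 6 lists. Under the CPSF3 label 4 of 10 rose and none fell, beside 10% and 4.38% of all genes. All 10 had a higher mean, beside 8640 of 16748 genes, and the median was 0.43 beside 0.01. The list was made with earlier results known, and a link to the CDK12 level was not tested. BRCA2 rose by 0.79 ± 0.20 (SE; limma, adjusted p = 0.0198), from 7.64, 7.65 and 8.50 on control arrays to 9.02, 8.57 and 8.58. TP53BP1, a double-strand break response protein, rose by 0.68 ± 0.13 (SE; limma, adjusted p = 0.00578). BRCA1 and RAD51C, both of homologous recombination, rose by 0.65 and 0.55 and are named after their values were seen. The calls of BRCA2 and RAD51C were lost in 3 and 5 of 18 settings (limma, adjusted p up to 0.101 and 0.23), each with control replicate 1 or 2 or CPSF3 replicate 1 left out, and for RAD51C also without CPSF3 replicate 3 and with no filter. On RBFOX2 arrays none was called; BRCA1 had the smallest p, at 0.43 ± 0.13 (SE; limma, adjusted p = 0.173), and passed without control replicate 3 (0.58; limma, adjusted p = 0.00754) and with array weights.

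**Figure D4:**
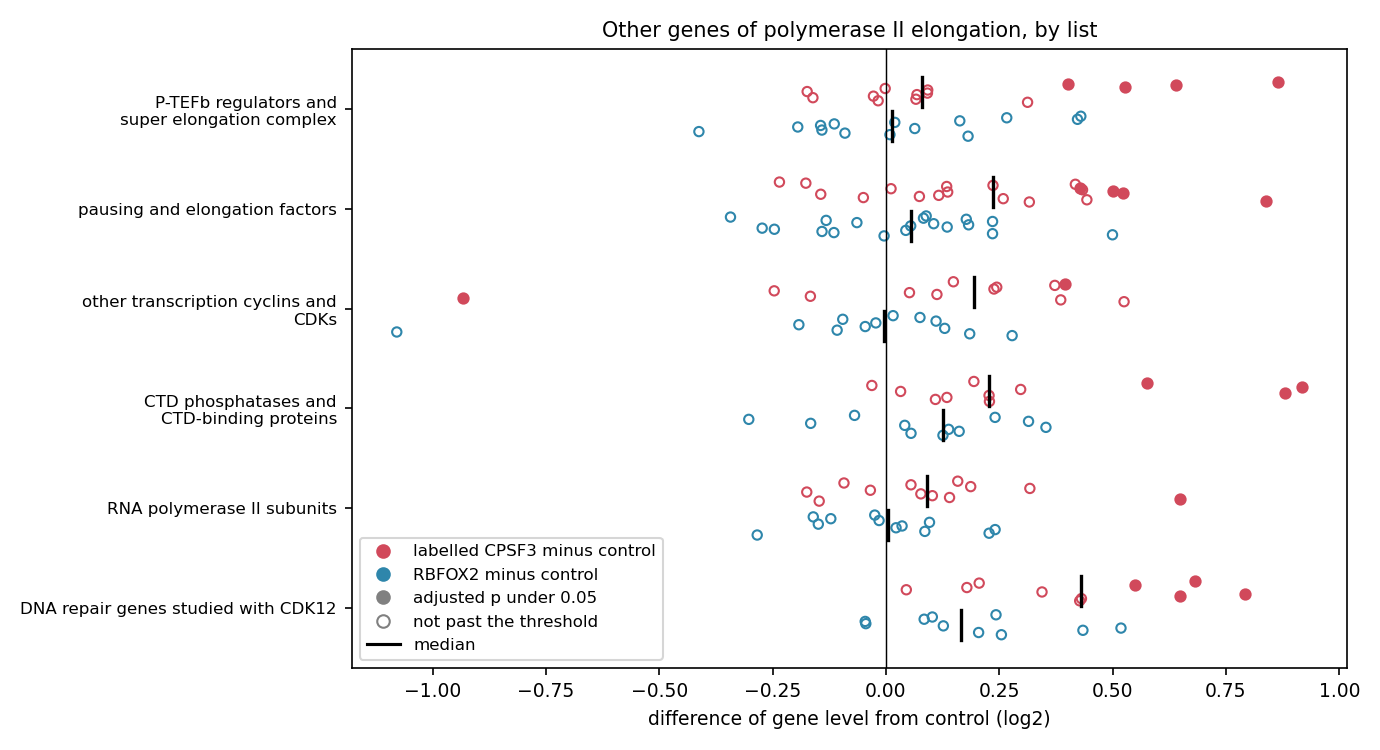
Difference of gene level (log2) from control for each measured gene of the 6 lists, for the arrays labelled CPSF3 knockdown and for RBFOX2 arrays; filled points passed an adjusted p of 0.05 and the short bars mark list medians. The 17 rises and 1 fall all lie in the CPSF3 comparison, and the DNA repair list has the highest median there, 0.43.

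Likeness over the 9 arrays was measured as the root mean square difference of levels, each centred on its mean, as a description. Among the 6 genes the closest pairs were CCNT1 with CCNT2 (0.16) and CDK12 with CDK13 (0.22), and the farthest was CDK13 with CCNK (0.62). Over all genes, LATS1, a Hippo pathway kinase, was closest to CDK12 (0.05) and RPRD2 next (0.07). MECOM and ADAT1 were closest to CDK13 (0.08 each), CST5 and RPL38 to CCNK (0.08 each), and CYFIP1 and CRB3 to CDK9 (0.04 and 0.05). PFDN1 and RBM3 were closest to CCNT1 (0.10 and 0.11), and ACTR3 and OXSR1 to CCNT2 (0.04 each). The measure is smaller for genes that vary little, such as CDK9, whose own root mean square deviation was 0.14 against 0.52 for CDK13.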

How the data were processed

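Total RNA was read on Affymetrix Human Exon 1.0 ST arrays. The authors deposited 1 log2 signal per probe set and array, made by RMA with Affymetrix Power Tools on hg18, per the submitters' processing notes; their versions are not given there. RMA compresses differences of dim probe sets and hides a change shared by most transcripts. The number of arrays limits precision: 3 against 3 cannot give an exact permutation p below 0.1.

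Symbols came from the platform annotation, updated through RefSeq synonyms; 14898 probe sets with several symbols were not named. Gene levels needed at least 3 kept probe sets and relative signals at least 5. Both were fitted with limma 3.58.1 in R 4.3.3 (lmFit, eBayes, 1 model of 3 groups, 2-sided, Benjamini-Hochberg over all features at 0.05) and tested on simulated data. Alternatives changed the filter, gene summary, scaling, samples, block, variance prior and weights.

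Members and lists were chosen with earlier results of these data known. Besides the members, the text names the 2 largest called rises and falls of each list and comparison with control (or the smallest p where none was called), the 2 genes most like each member, and each member's extreme probe sets; all others were chosen after their values were seen.

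Same-numbered arrays of different groups did not deviate together throughout (correlations from -0.14 to 0.33), so the numbers were not treated as pairs.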

Additional observations from a re-analysis of the deposited data

How the results depend on the processing

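Of 996 recomputed member values, 984 stayed within the spread between replicates, 11 moved and 1 reversed. That 1 was the CDK13 difference between arrays labelled CPSF3 knockdown and control. It was -0.38 from the 12 probe sets up to identifier 2998554 alone, a division chosen after seeing the data (the median of the 12 single differences was -0.04). From the same 12 the CDK13 difference also changed sign for RBFOX2 against control (-0.28) and between the hairpin groups (-0.10). Among gene levels, signs also changed for CCNK, CDK9 and CCNT2, in at most 3 of 18 settings per comparison. Of 450 recomputed gene tests, 379 kept their direction and side of the threshold, 61 lost the call, 8 gained it and 2 changed sign: HEXIM1 under the CPSF3 label was -0.0274 with array weights and ranged from -0.0868 (without CPSF3 replicate 1) to 0.218 with 1 array left out. Called genes against control under the CPSF3 label (2409) became 4817 with array weights and ranged from 965 to 3429 with 1 array left out. For RBFOX2 against control (29) they were 7 with no filter, 44 with mean levels, 5 with only those groups fitted, 1513 with array weights and from 2 to 1546 with 1 array left out. Between the hairpin groups (67) they were 18 with no filter, 140 with mean levels, 149 with only those groups, 601 with array weights and from 14 to 145 with 1 array left out. Called relative signals (0) were 2 with the stricter filter, 678 with mean levels and 773 with a variance trend under the CPSF3 label, and 1 with mean levels for RBFOX2; with 1 array left out they ranged from 0 to 3825 and from 0 to 823, and were 0 between the hairpin groups. Called list genes ranged from 6 to 23 under the CPSF3 label and from 0 to 5 for RBFOX2 with 1 array left out, and with array weights were 6 for RBFOX2 against control and 4 between the hairpin groups. With the replicate number as a block, called genes were 2564, 137 and 42 in the 3 comparisons; whether the numbers mark a pairing is not stated. Smaller sample sets and filters change what is tested; the cause of the other shifts was not tested. Dim probe sets near the filter limit what can be seen.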
